A study of Mus musculus with 6 samples.

Results

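The 9 genes of early and immature B cells studied here, Il7r, Kit, Cd93, Cd24a, Lef1, Sox4, Myb, Erg and Arpp21, were followed on 6 Affymetrix arrays. They were taken by name: every probe set whose only gene symbol was one of these 9 was used, which gave 32 of the 45037 probe sets tested, and 9 of 18193 named genes. Sox4 had 8 probe sets, Cd93 and Arpp21 had 5 each, Cd24a and Myb had 3 each, and Il7r, Kit, Lef1 and Erg had 2 each. The probe set with the highest mean signal over the 6 arrays is called the leading probe set of its gene. All groups compared below enter that choice, so it is not independent of the differences given.

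The B cells came from the bone marrow of 8 to 12 week old C57BL/6 mice, with the gender given as mixed, and their total RNA was measured. Cells with Gr1, DX5, CD11b, Ter119 or CD3 on their surface had been depleted, and the remaining cells were sorted by the immunoglobulin light chain on their surface, κ or λ. There were 3 groups of 2 arrays: TAK1-deficient Igκ+ cells, with the genotype label mb-1/TAK1f/f, and wild-type Igλ+ and wild-type Igκ+ cells, both with the label mb-1/TAK1+/+. TAK1, the product of Map3k7, is a kinase that links immune receptors to NF-κB and MAP kinases. All 3 groups carry mb-1, an older name of Cd79a, and the labels do not say whether it stands for a Cre driver or how far TAK1 was lost. The series title writes TAK1-/-, so "TAK1-deficient" and "wild-type" are names of the groups here. The labels do not say whether the 2 arrays of a group came from separate mice or from pools, so the p-values cover no more than the scatter between these arrays, which may be technical.

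B cells develop in the bone marrow through pro-B and pre-B stages, in which the heavy and then the light chain genes are rearranged, to the immature B cell, the first to carry a complete receptor on its surface. Early stages depend on interleukin 7, read through the receptor chain encoded by Il7r, and on the receptor tyrosine kinase Kit, and both receptors are lost as cells mature. Lef1, Sox4, Myb and Erg encode transcription factors of the progenitor stages, Arpp21 encodes an RNA-binding phosphoprotein that is made in pre-B cells, and Cd93 and Cd24a encode surface proteins by which immature B cells are recognised.

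Promoter sequences are shown for 4 members. Arpp21 had the largest difference between the genotypes among the 9. Il7r and Lef1 had leading probe sets that did not overlap between the wild-type groups. So did Arpp21 and Erg, and no Erg window is shown. Sox4 differed most between the wild-type Igλ+ replicates among the members above the control level, a background defined below, on all wild-type arrays. Each sequence is the 250 bases before a transcription start in RefSeq (build GRCm38.p6), written 5′ to 3′ on the strand of the gene, with matches to the motifs named after them in capitals. The Il7r window lies at chr15:9529877-9530126 on the minus strand, the Lef1 window at chr3:131110047-131110296 on the plus strand, the Sox4 window at chr13:28953700-28953949 on the minus strand and the Arpp21 window at chr9:112233723-112233972 on the minus strand. RefSeq lists 4 windows for Lef1 and 9 for Arpp21, of which the first listed is shown, and 1 each for Il7r and Sox4.
Il7r: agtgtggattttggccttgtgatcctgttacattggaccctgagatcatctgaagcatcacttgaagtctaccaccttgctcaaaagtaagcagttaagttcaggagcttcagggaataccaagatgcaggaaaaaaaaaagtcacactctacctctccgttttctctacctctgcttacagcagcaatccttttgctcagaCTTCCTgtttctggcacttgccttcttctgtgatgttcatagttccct
Lef1: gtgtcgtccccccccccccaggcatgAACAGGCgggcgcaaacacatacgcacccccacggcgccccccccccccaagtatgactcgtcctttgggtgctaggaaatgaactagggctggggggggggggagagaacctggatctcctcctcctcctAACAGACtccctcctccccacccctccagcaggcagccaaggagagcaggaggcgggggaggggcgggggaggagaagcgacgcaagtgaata
Sox4: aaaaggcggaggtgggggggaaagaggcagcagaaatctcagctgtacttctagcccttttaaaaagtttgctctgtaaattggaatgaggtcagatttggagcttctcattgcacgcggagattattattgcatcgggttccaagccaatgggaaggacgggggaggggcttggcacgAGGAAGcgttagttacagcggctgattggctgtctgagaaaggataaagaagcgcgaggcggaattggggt
Arpp21: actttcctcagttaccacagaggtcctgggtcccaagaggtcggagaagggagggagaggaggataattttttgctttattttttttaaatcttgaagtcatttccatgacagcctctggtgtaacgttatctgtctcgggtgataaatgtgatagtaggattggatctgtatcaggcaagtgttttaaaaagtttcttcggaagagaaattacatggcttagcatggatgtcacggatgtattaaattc

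The motifs were searched on both strands, and were the short core sites of the members' own factor families: AGGAAG for ETS factors such as ERG, CTTTGA for LEF1 and TCF factors, AACAAAG for SOX factors and AACNGNC for MYB. Different motifs had first been searched and had no match in the windows then shown, so these matches are a description only. The Il7r window holds 1 ETS match, on the opposite strand, with its first base 48 bases before the start, and the Sox4 window holds 1, which begins 71 bases before it. The Lef1 window holds 2 MYB matches, which begin 224 and 93 bases before the start, and the Arpp21 window holds none of the 4 motifs. The table held windows for 7 of the 9 genes, 21 in all, without Cd93 and Cd24a. AGGAAG was in 9 of the 21 windows against 29.5% of all 32851 windows, AACNGNC in 8 against 27.7%, CTTTGA in 4 against 13.8%, and AACAAAG in 0 against 5.03%. The arrays measured RNA, and nothing bound to these windows was measured.

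The TAK1-deficient arrays stood apart from all wild-type arrays before any gene was considered. Their median signals were 324 and 323, against 44.9 to 59.1 on the 4 wild-type arrays, and their spiked hybridization controls, which are added in equal amounts, had geometric means of 47043 and 41197, against 3985 to 4608. The control level, the 95th percentile of 27 control probe sets without a target in the sample, was 77.8 and 75.7 for TAK1-deficient cells, compared with 10.3 to 17.4 for wild-type cells. The Actb signal at the 3′ end over that at the 5′ end, a ratio that rises with RNA breakdown, was 6.28 and 4.18 against 1.25 to 1.58. Across probe sets, the TAK1-deficient arrays correlated with wild-type arrays at r = 0.432 to 0.510, while wild-type arrays correlated with each other at 0.962 to 0.984. Genotype and these array properties cannot be told apart. Map3k7 had signals of 346 and 599 in TAK1-deficient Igκ+ cells, against 2149 and 1957 in wild-type Igλ+ and 2196 and 1805 in wild-type Igκ+ cells, at its leading probe set. Whether that probe set lies in the floxed stretch was not examined here. Its difference from wild-type Igκ+ cells was -2.09 (log2, limma adjusted p = 0.000437). Among probe sets about as bright on wild-type arrays, in bins 9 and 10 defined below, the median differences were -1.33 and -1.46. Of these, 75.4% and 86% were called lower. Other Map3k7 probe sets gave -2.33, -2.23, -0.99, -0.81 and 0.30, and those at -0.99 and 0.30 did not pass. Whether Map3k7 fell further than such bright probe sets do was not tested. The 7 B lineage markers measured were above the control level on every array.

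In TAK1-deficient Igκ+ cells, Arpp21, Erg, Cd24a, Il7r and Myb had higher signals than in wild-type Igκ+ cells at their leading probe sets, by 0.93 to 5.80 on the log2 scale. Arpp21 and Erg were also positive under all 4 other scalings given below, while Cd24a, Il7r and Myb turned negative under 2 of them. Kit, Lef1, Cd93 and Sox4 did not pass the test at their leading probe sets. Over all 32 probe sets, 18 were higher and 1 was lower (limma, Benjamini-Hochberg adjusted p under 0.05), which is to be read against 56.8% of all probe sets called higher and 21.8% called lower in the same comparison, 78.6% together. At an unadjusted p under 0.05 there were 19 of the 32, against 80.1% of all probe sets. The groups did not overlap in 27 of the 32, against 90.3% of all probe sets, with 25 higher against 63.9% and 2 lower against 26.5%. The median difference was 1.39 over the 32 probe sets and 1.53 over all probe sets tested. Differences are on the log2(signal + 16) scale, which understates the change of dim genes. In such bulk samples, a change in the number of cells that express a gene and a change in RNA per cell cannot be told apart.

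**Figure D1:**
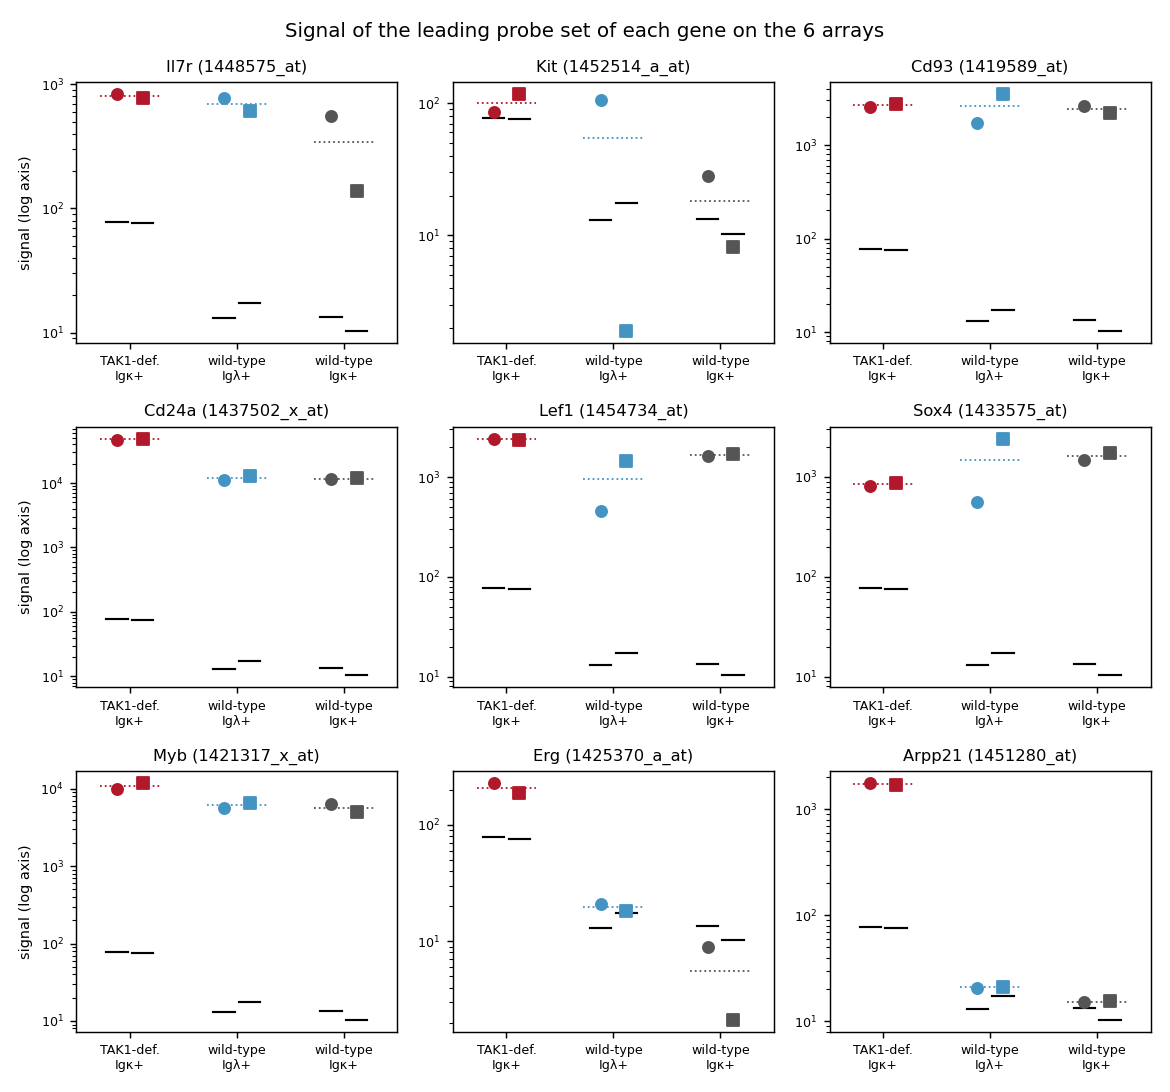
Signal (log axis, arbitrary units) of the leading probe set of each of the 9 genes on the 6 arrays; circles are replicate 1, squares are replicate 2, dotted lines are group means and short black bars are the control level of each array. Arpp21 lay at 1764 and 1700 in TAK1-deficient Igκ+ cells and at 15.1 to 21.0 on the wild-type arrays, while the Cd93 groups overlapped.

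Of the receptors, Il7r had signals of 834 and 775 in TAK1-deficient Igκ+ cells, against 551 and 139 in wild-type Igκ+ cells, at its leading probe set 1448575_at. The wild-type values lay far apart, and both were below the TAK1-deficient ones. The difference was 1.47 ± 0.56 (log2, SE; limma adjusted p = 0.0450), and it was 0.53 (adjusted p = 0.198) without wild-type Igκ+ replicate 2. The call was also lost when any other array except wild-type Igκ+ replicate 1 was left out, with adjusted p-values from 0.0566 to 0.127. The other Il7r probe set, 1448576_at, had 191 and 128 in TAK1-deficient Igκ+ cells, against 84.7 and 16.2 in wild-type Igκ+ cells, a difference of 1.60 ± 0.55 (limma adjusted p = 0.0297) that was negative under all 4 other scalings given below, at -1.13 to -0.28. Within its array it ranked lower in TAK1-deficient cells, above 31.7% and 21.5% of all probe sets on the TAK1-deficient arrays and above 55.0% and 39.3% on the wild-type Igκ+ arrays.

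Kit, the receptor of stem cell factor, was dim on all arrays but wild-type Igλ+ replicate 1. On that array its leading probe set 1452514_a_at had 106 and was brighter than 58.0% of all probe sets. This probe set had signals of 85.2 and 117 in TAK1-deficient Igκ+ cells, against 28.2 and 8.19 in wild-type Igκ+ cells. The groups did not overlap, and the lower wild-type value was under the control level of its array. The difference of 1.82 ± 0.82 did not pass (limma adjusted p = 0.0749), although it did without either wild-type Igλ+ array (0.00564 without replicate 1 and 0.00500 without replicate 2). At 1415900_a_at, Kit had 81.8 and 145 in TAK1-deficient Igκ+ cells, against 14.3 and 4.24 in wild-type Igκ+ cells, and was called higher (limma adjusted p = 0.000881). As the lower wild-type value was under the control level of its array, the fitted 2.34 ± 0.38 depends on the pseudocount, and it was -0.28 under quantile normalization and -0.77 after the level adjustment. On TAK1-deficient replicate 1 both probe sets were just above the control level of 77.8. The leading one was brighter than 14.2% and 19.6% of all probe sets on TAK1-deficient arrays, against 42.1% and 27.9% on wild-type Igκ+ arrays. For 1415900_a_at these shares were 13.7% and 24.4%, against 30.8% and 17.8%.

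Of the surface proteins, Cd93, a C-type lectin-like receptor, was bright in all groups. Its leading probe set 1419589_at had signals of 2577 and 2713 in TAK1-deficient Igκ+ cells, against 2635 and 2210.5 in wild-type Igκ+ cells. The groups overlapped, and the difference was 0.13 ± 0.32 (limma adjusted p = 0.714). Another 3 Cd93 probe sets also did not pass, and 1441907_s_at was higher by 1.37 ± 0.46 (limma adjusted p = 0.0286), with 151 and 48.9 in TAK1-deficient Igκ+ cells against 28.1 and 21.0 in wild-type Igκ+ cells. The lower of the TAK1-deficient values was under the control level of its array, and the probe set was negative under all 4 other scalings, at -1.43 to -0.56.

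Cd24a, which encodes a small glycosylated surface protein that is high on immature B cells, was the brightest member. At 1437502_x_at its signals were 46827 and 48853 in TAK1-deficient Igκ+ cells, against 11675 and 11802 in wild-type Igκ+ cells, a difference of 2.03 ± 0.08 (limma adjusted p = 1.06e-05). The TAK1-deficient values exceeded the highest signal of any probe set on a wild-type array, which was 15310 to 16295, and the probe set was brighter than at least 99.89% of all probe sets on every array. At 1448182_a_at the difference was 2.0 ± 0.11 (limma adjusted p = 1.07e-05). The third probe set, 1416034_at, went the opposite way, with 4165 and 4994 in TAK1-deficient Igκ+ cells, against 7648 and 6334 in wild-type Igκ+ cells, and was the member probe set that was lower, by -0.61 ± 0.20 (limma adjusted p = 0.0268), with 0.45 after the level adjustment. The suffix x of this leading probe set, as of that of Myb, marks probes that may match other sequences. The probe sets of Cd24a thus disagree, and no direction is given for the gene. The call at 1416034_at was among those that changed with the arrays used: without TAK1-deficient replicate 1 or without wild-type Igκ+ replicate 1, 0 member probe sets were called lower.

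Of the transcription factors, Lef1, a nuclear partner of β-catenin, had signals of 2426 and 2373 in TAK1-deficient Igκ+ cells, against 1639 and 1706 in wild-type Igκ+ cells, at 1454734_at. The groups did not overlap, but the difference of 0.52 ± 0.47 did not pass with the spread shared by all 3 groups (limma adjusted p = 0.336). It passed without wild-type Igλ+ replicate 1 (0.0263) or replicate 2 (0.0327), which enter the shared spread and differ from each other, as given below. At the dimmer 1421299_a_at, Lef1 had 168 and 216 in TAK1-deficient Igκ+ cells, against 26.6 and 46.3 in wild-type Igκ+ cells, a difference of 2.0 ± 0.35 (limma adjusted p = 0.00132). Under the 4 other scalings this probe set was negative and did not pass, at -0.80 to -0.23.

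The 8 probe sets of Sox4, an HMG-box factor needed for pro-B cells, gave both signs. The leading 1433575_at had signals of 815 and 869 in TAK1-deficient Igκ+ cells, against 1497 and 1733 in wild-type Igκ+ cells. Both TAK1-deficient values were below both wild-type ones, and the difference of -0.92 ± 0.59 did not pass (limma adjusted p = 0.186). It passed without wild-type Igλ+ replicate 1 (0.00443) or replicate 2 (0.00587). At 1419156_at the signals were 759 and 378 in TAK1-deficient Igκ+ cells, against 111 and 96.4 in wild-type Igκ+ cells, a difference of 2.21 ± 0.40 (limma adjusted p = 0.00167), but from -0.99 to 0.96 and not past the threshold under the 4 other scalings. On the deposited scale 1455867_at and 1419155_a_at were higher by 1.41 and 1.53, and both were called lower with spiked control scaling. At 1419157_at Sox4 was called higher with 1 array of each group at the control level, and lower after the level adjustment (-1.35), so no size is given, and 1449370_at, 1458332_x_at and 1443778_at did not pass. The last 2 were at the control level on all 6 arrays.

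Myb, which encodes a factor required from the earliest B cell stages, was higher at its leading probe set 1421317_x_at, with 9981 and 11809 in TAK1-deficient Igκ+ cells, against 6393 and 5052 in wild-type Igκ+ cells. The groups did not overlap, and the difference was 0.93 ± 0.15 (limma adjusted p = 0.000848). The other Myb probe sets, 1422734_a_at and 1450194_a_at, gave 0.88 ± 0.59 and 0.35 ± 0.50 and did not pass. Erg, an ETS factor, had 227 and 186 in TAK1-deficient Igκ+ cells, against 9.01 and 2.11 in wild-type Igκ+ cells, at 1425370_a_at. Both wild-type values were at the control level, so the signal was at least 17.5-fold higher in TAK1-deficient cells (limma adjusted p = 4.05e-05). Such a bound holds on the deposited scale and sets the bright mean against the higher of the dim signal and the array's control level. That level was itself higher on the TAK1-deficient arrays, at 77.8 and 75.7 against 13.4 and 10.3 on the wild-type Igκ+ arrays. Erg 1425370_a_at was brighter than 37.4% and 31.2% of all probe sets on the TAK1-deficient arrays, and than 22.1% and 11.4% on the wild-type Igκ+ arrays. At 1440244_at Erg was called higher (limma adjusted p = 0.0469) with all 4 values at the control level of their arrays, so no fold is given.

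Arpp21 had the largest difference. Its leading probe set 1451280_at had signals of 1764 and 1700 in TAK1-deficient Igκ+ cells, against 15.1 and 15.6 in wild-type Igκ+ cells, a difference of 5.80 ± 0.27 (limma adjusted p = 1.06e-05). The wild-type values were just above the control level. At 1424248_at the signals were 608 and 471 in TAK1-deficient Igκ+ cells, against 5.70 and 3.16 in wild-type Igκ+ cells, which were at the control level, so the signal was at least 45.5-fold higher (limma adjusted p = 1.52e-05). At 1440429_at it was at least 14.4-fold higher (limma adjusted p = 2.28e-05), but the call was lost after the level adjustment (0.13, limma adjusted p = 0.700). At 1419028_at Arpp21 had 40.02 and 105 in TAK1-deficient Igκ+ cells, against 11.1 and 8.12 in wild-type Igκ+ cells, and at 1442121_at it had 9.99 and 86.7 against 4.71 and 7.06. Both wild-type arrays and 1 TAK1-deficient array were at the control level at each of these, so no fold is given, and only 1419028_at was called higher (limma adjusted p = 0.00519, against 0.0855 at 1442121_at). After the level adjustment both were called lower, at -1.48 (limma adjusted p = 0.0217) for 1419028_at and -1.91 (limma adjusted p = 0.0371) for 1442121_at. The leading probe set was brighter than 94.4% and 93.9% of all probe sets on the TAK1-deficient arrays, and than 31.8% and 38.6% on the wild-type Igκ+ arrays.

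The size and the sign of these differences followed how bright a probe set was on the wild-type arrays. When all probe sets were put into 10 bins of equal size by their mean wild-type level, the median difference was 3.12 in bin 1, the dimmest, 3.29 in bin 3, 1.67 in bin 6, -0.61 in bin 8 and -1.46 in bin 10, the brightest. Wild-type Igκ+ arrays enter both the level and the difference, so part of such a trend is built in. Il7r, Cd93, Cd24a, Lef1, Sox4 and Myb have their leading probe sets in bins 8 to 10, where all 12 member probe sets lay above the median of their bin. Of the 16 member probe sets in bins 1 to 5, 12 lay below the median of their bin. Of these 16, 11 were called higher, against 89.1% of all probe sets in those bins. Arpp21 1451280_at and 1424248_at were the exception on the dim side, at 2.79 and 1.52 above the median of their bin, whereas Erg 1425370_a_at lay 0.09 above it. The other Arpp21 probe sets were not: 1440429_at was at 0.11 from the median of its bin, 1419028_at at -1.61 and 1442121_at at -1.88.

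**Figure D2:**
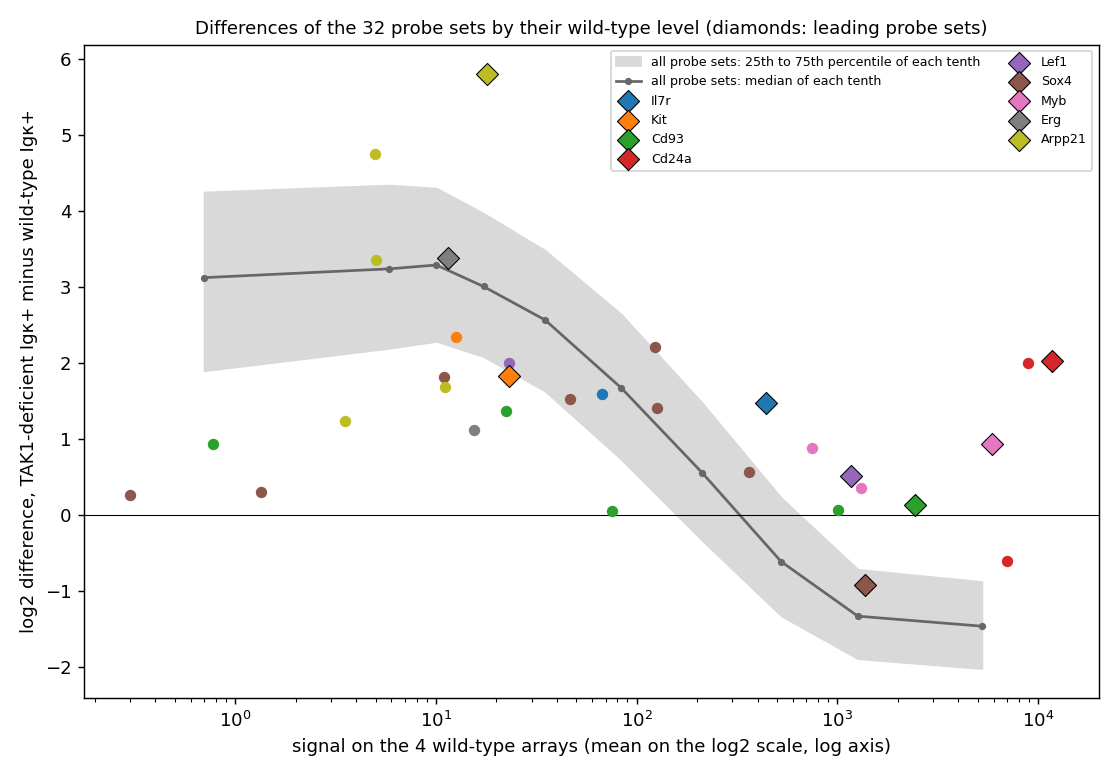
Log2 difference of TAK1-deficient Igκ+ minus wild-type Igκ+ cells for the 32 probe sets (points, coloured by gene; diamonds are leading probe sets) by the mean signal on the 4 wild-type arrays (log axis, arbitrary units). The line joins the medians of all probe sets in each of the 10 bins of wild-type level and the band spans their 25th to 75th percentiles; the line runs between 3.29 and -1.46, and Arpp21 1451280_at lies 2.79 above it.

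Because the arrays differ in this way, the test was repeated under 4 other scalings: quantile normalization, centring each array on its median, scaling on the spiked controls, and a level adjustment, in which the trend of a TAK1-deficient array over wild-type level was taken off. They move the median difference of all probe sets, which was 1.53 as deposited, to -0.20, -0.35, -0.86 and -0.01. The 18 higher and 1 lower of the 32 member probe sets on the deposited scale became 9 and 3, 4 and 13, 4 and 15, and 10 and 9. Of all 45037 probe sets, 35414 were called in either direction as deposited, and 27040, 32292, 30351 and 19584 under the others. The median over the members was 1.39 as deposited and -0.06, -0.56, -1.09 and 0.21 under the others, and so moved with that of all probe sets. Arpp21 1451280_at and 1424248_at were called higher under all 5, by 2.88 to 5.80 and by 1.54 to 4.76. None was called lower under all 5, and 14 were called in both directions, depending on the scaling. Of calls over all probe sets, 72.3% were higher as deposited, against 43.5%, 40.3%, 29.7% and 54.2% under the 4 others. At the leading probe sets Arpp21 was called higher under all 5 scalings and Erg had positive values that missed the threshold under quantile normalization and the level adjustment, while the sign turned under at least 1 scaling for the other 7 genes.

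**Figure D3:**
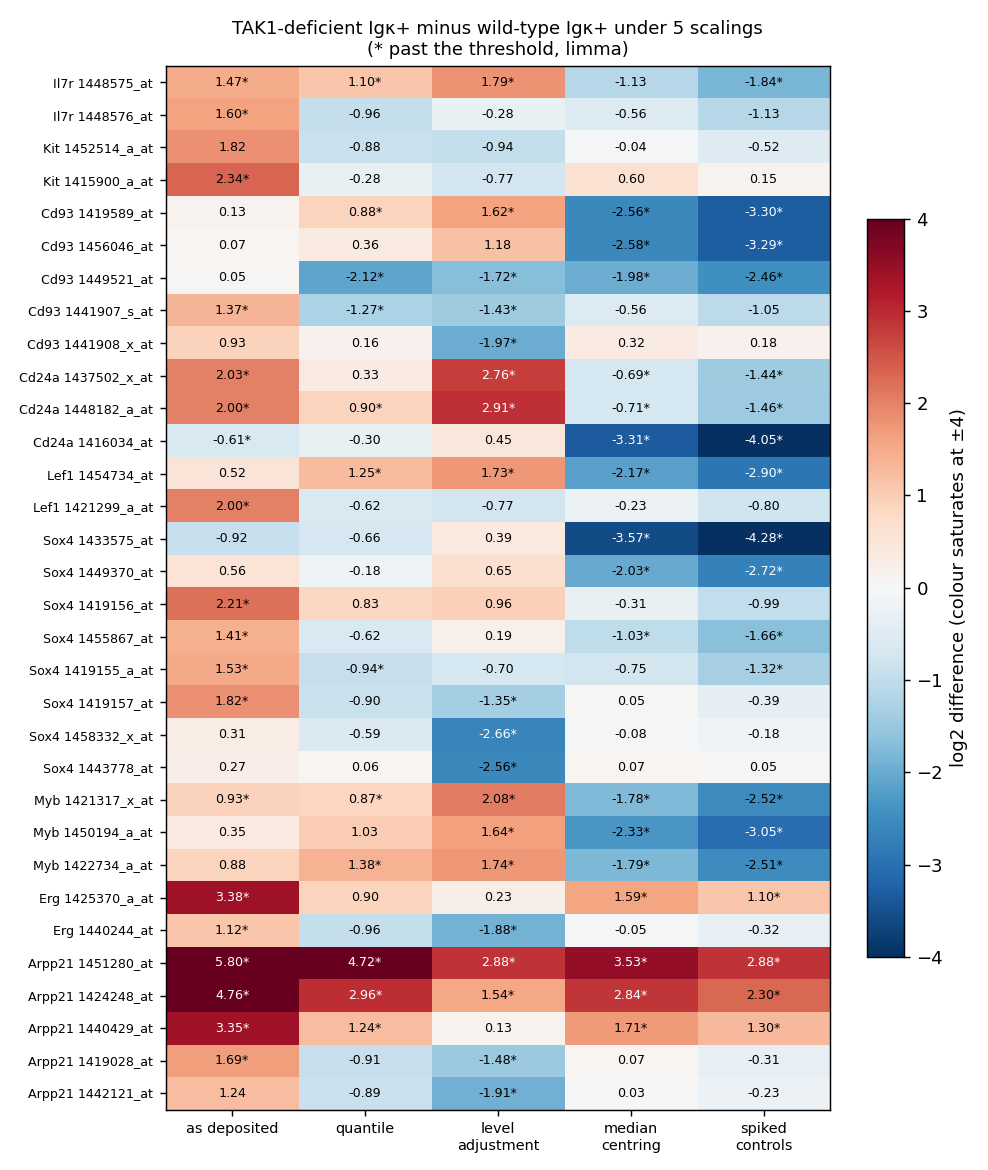
Log2 difference of TAK1-deficient Igκ+ minus wild-type Igκ+ cells for each of the 32 probe sets (down) under 5 scalings (across); an asterisk marks a limma adjusted p under 0.05, and colours saturate at 4 log2 units. Arpp21 1451280_at and 1424248_at are positive and starred in every column, while 14 probe sets are starred with both signs.

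Markers of other cell types were counted on the deposited scale, where dim probe sets as a class were higher and bright ones lower. Of 15 T cell markers measured, 13 were higher and 1, Cd2, was lower. In bins 1 to 5 of wild-type level, 12 of 13 T cell markers were called higher, against 89.1% of all probe sets in those bins. The sum of the 14 markers without Cd2, which made up most of the wild-type signal of the list, was 8190 and 8348 in TAK1-deficient Igκ+ cells, against 381 and 273 in wild-type Igκ+ cells. With Cd2 it was 9137 and 9377, against 4895 and 6543. Of 12 stromal and endothelial markers, 11 were higher and 1 was lower, with 10 of 10 in bins 1 to 5 higher, and sums of 7830 and 7179 in TAK1-deficient Igκ+ cells, against 1417 and 1196 in wild-type Igκ+ cells. Plasma cell markers had 2 higher and 6 lower of 8, with sums of 6002 and 7720 in TAK1-deficient Igκ+ cells, against 34555 and 27347 in wild-type Igκ+ cells. The medians of the T cell and the stromal lists stayed positive under all 5 scalings, at 0.41 to 3.49 and 0.90 to 3.94. That of the plasma cell list stayed negative, at -5.17 to -0.56. Each marker gene was read at 1 probe set, its brightest on average across all 6 arrays. Where a gene is dim on the wild-type arrays, the TAK1-deficient arrays largely settle that choice, which favours a higher value there. The same probe sets were used under every scaling, so the kept sign is partly built in for the T cell and stromal lists. What part these other cells have in the members' values was not tested. NK cell markers had 1 higher of 9, granulocyte markers 3 higher of 12, monocyte and macrophage markers 4 higher and 1 lower of 12, erythroid markers 5 higher and 2 lower of 10, megakaryocyte and basophil or mast cell markers 0 of 9, and B lineage markers 2 higher and 2 lower of 7.

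Genes that work with the members were also read at the brightest probe set of each gene over the 6 arrays. Here too that choice is not independent of the differences given. Counts are on the deposited scale unless stated. On that scale bright probe sets as a class were lower. Of all probe sets, 40.2% in bin 8 of wild-type level, 75.4% in bin 9 and 86% in bin 10 were called lower. Counts of lower genes in these lists are to be read against those shares. Of 27 other pro-B and pre-B cell genes, 6 were higher and 12 lower in TAK1-deficient Igκ+ cells, with a median of -0.21, which was 0.21 after the level adjustment. Ebf1, which encodes a factor that sets B cell identity, had 9309 and 9899 in TAK1-deficient Igκ+ cells, against 5983 and 6172 in wild-type Igκ+ cells. The difference was 0.66 ± 0.10 (limma adjusted p = 0.000552), and -2.79 on the scale of the spiked controls. Among genes of IL-7 receptor signalling, 5 of 27 were higher and 18 lower, with medians from -4.21 to -0.30 over the 5 scalings. Ccnd2, which encodes a cyclin that drives entry into the cell cycle, had 1684 and 2105 in TAK1-deficient Igκ+ cells, against 4090.1 and 5157 in wild-type Igκ+ cells (-1.28 ± 0.29, limma adjusted p = 0.00490), but 0.10 after the level adjustment. Of KIT signalling genes, 8 of 17 were higher and 8 lower, with medians from -4.02 to 0.15 over the 5 scalings. The adaptor gene Grb2 was lower by -2.49 ± 0.16 (limma adjusted p = 1.33e-05), and by -5.87 to -1.30 under the other scalings.

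Of partners and targets of LEF1 and TCF factors, 10 of 20 were higher and 5 lower, with medians from -2.44 to 0.71 over the 5 scalings. Ctnnb1, which encodes β-catenin, gave 0.26 ± 0.16 and did not pass (limma adjusted p = 0.164). Of 23 family members and cofactors of MYB, ERG and SOX4, 8 were higher and 12 lower, with medians from -4.01 to 0.09. Ets1, which encodes an ETS factor of lymphocytes, had 1428 and 1976 in TAK1-deficient Igκ+ cells, against 6656 and 7216 in wild-type Igκ+ cells (-2.03 ± 0.18, limma adjusted p = 4.55e-05), and was negative under all 5 scalings, down to -5.44. Of ligands and partners of CD24 and CD93, 8 of 15 were higher and 3 lower, with medians from -0.93 to 1.41. Of 21 mature B cell genes, 3 were higher and 15 lower, with medians from -4.99 to -0.65. Most of these genes are bright in wild-type cells, and 75.4% and 86% of all probe sets in bins 9 and 10 were called lower. H2-Aa, which encodes an MHC class II chain, had 394 and 670.2 in TAK1-deficient Igκ+ cells, against 10630.4 and 11682 in wild-type Igκ+ cells (-4.39 ± 0.23, limma adjusted p = 1.06e-05). It stayed negative under all 5 scalings. The other brightest genes of this list differed from it. Ms4a1 was higher by 1.23 (limma adjusted p = 4.09e-05) and Cd74 by 0.86 (limma adjusted p = 0.000186), both negative with median centring and spiked control scaling. Tnfrsf13c, at -0.26, did not pass (limma adjusted p = 0.0742).

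Between wild-type Igλ+ and wild-type Igκ+ cells, no member passed the test. Limma with Benjamini-Hochberg adjustment called 0 of the 32 probe sets and 0% of all probe sets, with a smallest adjusted p of 0.99999. At an unadjusted p under 0.05 there were 2 of the 32, both of Erg, against 1.98% of all probe sets. The groups did not overlap in 12 of the 32, against 27.1% of all probe sets, with 9 higher in Igλ+ cells against 19.3% and 3 lower against 7.88%. The median difference was 0.03 over the members and 0.07 over all probe sets. With 2 arrays a group this does not show that the cells express these genes alike: the standard errors of the leading probe sets ran from 0.08 for Cd24a to 0.82 for Kit.

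Il7r had signals of 780.1 and 613 in wild-type Igλ+ cells, against 551 and 139 in wild-type Igκ+ cells, at its leading probe set. Both Igλ+ values were the higher, and the difference was 1.26 ± 0.56 (unadjusted p = 0.0609 in limma over all probe sets), with 0.32 when wild-type Igκ+ replicate 2 was left out. Lef1 went the other way, with 462 and 1458 in wild-type Igλ+ cells, against 1639 and 1706 in wild-type Igκ+ cells, a difference of -1.01 ± 0.47 (unadjusted p = 0.0686 in limma over all probe sets), and -0.20 when Igλ+ replicate 1 was left out. Each of these differences thus rested mainly on 1 array. Erg had 20.9 and 18.3 in wild-type Igλ+ cells, against 9.01 and 2.11 in wild-type Igκ+ cells (unadjusted p = 0.0379 in limma). The Igκ+ values were at the control level. The Igλ+ values were not far above that of their own arrays, 13.1 and 17.4, so no fold is given. Cd24a and Myb differed by 0.01 ± 0.08 and 0.09 ± 0.15, Cd93 by 0.02 ± 0.32, Arpp21 by 0.24 ± 0.27, Sox4 by -0.46 ± 0.59 and Kit by 0.52 ± 0.82.

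The larger differences among wild-type arrays were between replicates of a group. Kit 1452514_a_at had 1.90 on Igλ+ replicate 2, under the control level of that array, and 106 on Igλ+ replicate 1, which gave the widest gap of any leading probe set on the log2(signal + 16) scale. Kit 1415900_a_at had 11.4, also under the control level, and 23.5. The members above the control level on all 4 wild-type arrays mostly ran the other way. Sox4 1433575_at had 2419 on Igλ+ replicate 2 and 560 on Igλ+ replicate 1, a ratio of 4.32, and at 1449370_at the ratio was 6.18. Lef1 1454734_at had a ratio of 3.16, Myb 1422734_a_at of 3.25 and 1450194_a_at of 2.83, and Cd93 1456046_at of 3.77 and 1419589_at of 2.03. In contrast, the leading probe sets of Cd24a and Myb kept ratios of 1.16 and 1.13. Of the 19 member probe sets above the control level on all 4 wild-type arrays, 12 were lowest on Igλ+ replicate 1, against 32.4% of 27134 such probe sets in all, and 14 were highest on Igλ+ replicate 2, against 30.2%. In wild-type Igκ+ cells Il7r stood out, with replicate 1 over replicate 2 at 3.98 and 5.22 at its probe sets.

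These replicates also differed in markers of other cells. Igλ+ replicate 1 had a summed signal of 39629 over 12 granulocyte markers and 13142 over 9 megakaryocyte and basophil or mast cell markers, with none at the control level. Igλ+ replicate 2 had 358 and 178, with 6 and 4 at the control level, and Igκ+ replicates 1 and 2 had 5455 and 346 for granulocyte markers and 1864 and 247 for the others. Monocyte and macrophage markers summed to 15107 on Igλ+ replicate 1 and to 4379 to 6599 on the other wild-type arrays. Without Ms4a6c, the brightest of them on the wild-type arrays, these sums were 10403 and 465 to 2152. Igκ+ replicate 2, where Il7r was low, had the highest sum of 9 NK cell markers, 3963 against 1032 to 2283, with none at the control level. Without Prf1 the sums were 3097 on that array and 137 to 1647 on the other wild-type arrays. The B lineage sum was 45822 to 49921 on the 4 arrays. Whether those cells account for the members' values was not tested.

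**Figure D4:**
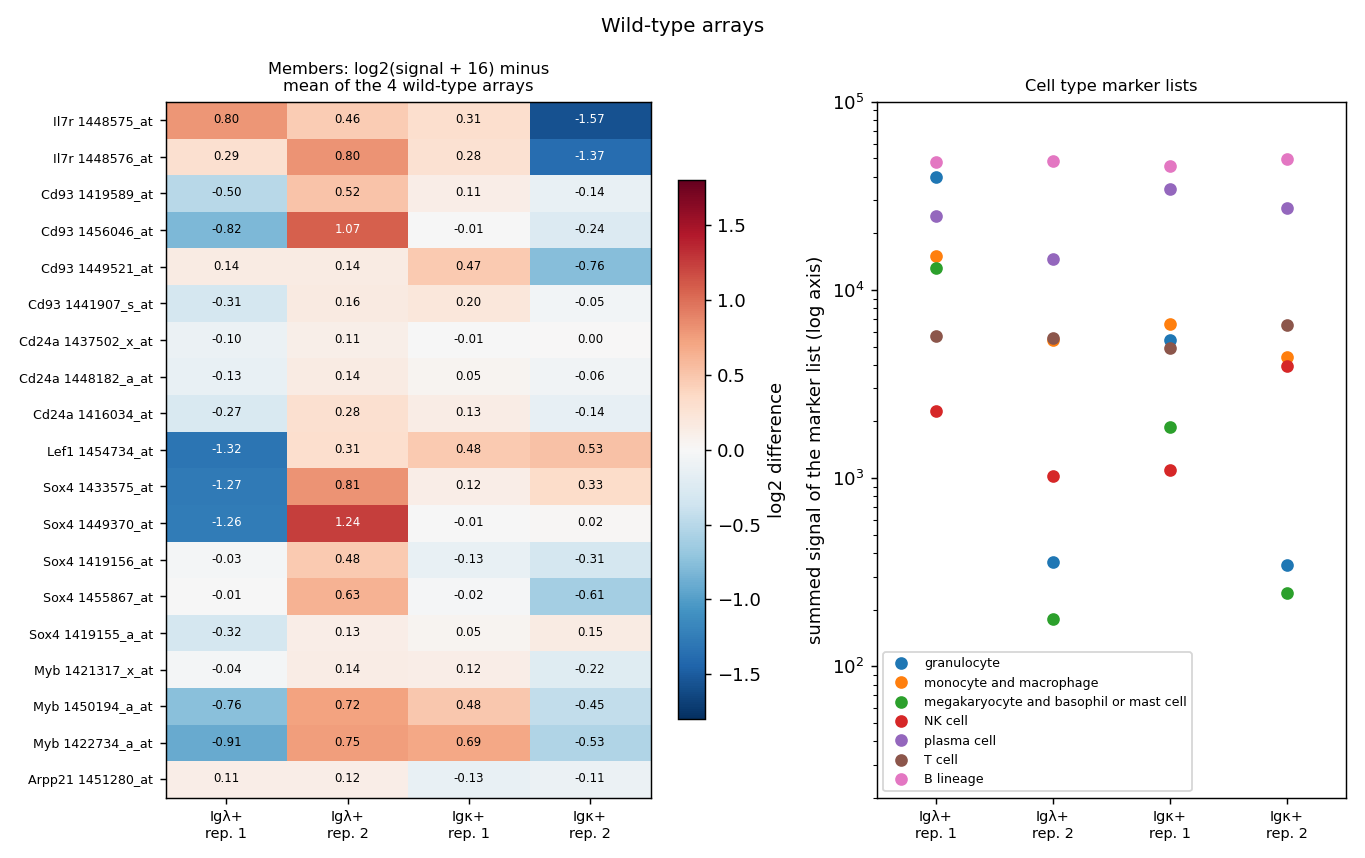
Left, log2(signal + 16) of the 19 member probe sets above the control level on all 4 wild-type arrays, as the difference from their mean over these arrays. Right, summed signal of marker lists on each array (log axis, arbitrary units). Igλ+ replicate 1 is lowest for 12 of the 19 probe sets and has a granulocyte marker sum of 39629, against 358 on Igλ+ replicate 2.

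When TAK1-deficient Igκ+ cells were set against wild-type Igλ+ cells, genotype and light chain differed together, and the TAK1-deficient arrays are those already used above. Of the 32 probe sets 16 were higher and 1 was lower by limma, against 55.8% and 22% of all probe sets and 77.9% together, and 17 had an unadjusted p under 0.05, against 79.5%. The groups did not overlap in 22, against 88.1%, with 20 higher against 61.9% and 2 lower against 26.2%. Lef1 passed here at its leading probe set, with 2426 and 2373 in TAK1-deficient Igκ+ cells, against 462 and 1458 in wild-type Igλ+ cells (1.53 ± 0.47, limma adjusted p = 0.0196), but not without TAK1-deficient replicate 1 (0.0643) or replicate 2 (0.0590). Il7r did not pass: its 834 and 775 in TAK1-deficient Igκ+ cells overlapped the 780.1 and 613 in wild-type Igλ+ cells, with a difference of 0.21 ± 0.56 (limma adjusted p = 0.742). The Il7r values of the 2 genotype comparisons differ by the 1.26 ± 0.56 between the wild-type groups, which did not pass.

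Arpp21 1451280_at had 1764 and 1700 in TAK1-deficient Igκ+ cells, against 20.8 and 21.0 in wild-type Igλ+ cells, a difference of 5.56 ± 0.27 (limma adjusted p = 1.27e-05). At 1424248_at it was at least 35.5-fold higher and at 1440429_at at least 11.2-fold higher, though 1440429_at was -0.30 after the level adjustment. At 1419028_at and 1442121_at it was called higher with arrays of both groups at the control level, so no size is given, and 1419028_at was called lower after the level adjustment. Cd24a 1437502_x_at was higher by 2.01 ± 0.08 and 1416034_at lower by -0.62 ± 0.20 (limma adjusted p = 0.0252), so the disagreement between its probe sets was present against both wild-type groups. Myb was higher by 0.84 ± 0.15 (limma adjusted p = 0.00151) and Erg by 2.64 ± 0.29 (limma adjusted p = 0.000134), but Cd24a, Lef1 and Myb were negative under median centring and spiked control scaling, and Erg was -0.51 after the level adjustment and -0.0064 with quantile normalization. Kit, Cd93 and Sox4 did not pass at their leading probe sets, at 1.31 ± 0.82, 0.11 ± 0.32 and -0.46 ± 0.59. Kit and Sox4 changed sign, to -0.08 and 0.58, without Igλ+ replicate 2, and both passed without Igλ+ replicate 1, at 2.70 (limma adjusted p = 0.00311) and -1.51 (limma adjusted p = 0.00168). Cd93 was -0.40 without Igλ+ replicate 1, and passed without replicate 2, at 0.62 (limma adjusted p = 0.0364). Under the 5 scalings 2 Arpp21 probe sets were again called higher in all, and 10 member probe sets were called in both directions.

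The gene whose profile over the 6 arrays lay nearest to each member was found by Euclidean distance between profiles centred on their own mean. Tyr lay nearest to Arpp21, with 898 and 845 in TAK1-deficient Igκ+ cells and 0.384 to 2.46 on the wild-type arrays. All 4 wild-type values of Tyr were under the control level, where the pseudocount flattens a profile, so its distance is not given. Ywhaz lay nearest to Myb at 0.13, Slc16a4 to Cd93 at 0.18, Usp46 to Cd24a at 0.22, Alpk3 to Erg at 0.30, Dstyk to Sox4 at 0.43, Tet2 to Lef1 at 0.58, Pxylp1 to Kit at 0.60 and Mrvi1 to Il7r at 0.69. Erg and Kit themselves were at the control level on 2 of the wild-type arrays each. The distances are in log2 units over 6 arrays that share the array differences described above.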

How the data were processed

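The 6 Affymetrix arrays measured RNA of B cells sorted from mouse bone marrow. The deposited values are probe set intensities on a linear scale, and the submitters' processing notes name MAS5 for them, with no version. Without the extreme 2% at each end, the mean of the deposited intensities is 500 on each array, as after scaling by 1 factor an array. Of 45101 probe sets, 64 are Affymetrix controls and 34945 have 1 gene symbol in the platform annotation. Coordinates are those of RefSeq promoter windows.

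Groups of 2 arrays were taken from the titles, with the suffix "-rep" as replicate 2. Signals were converted to log2(signal + 16), with no filter on low values. Groups were compared with limma 3.58.1 (R 4.3.3) in 1 fit of all 6 arrays, with group means as coefficients, 3 residual degrees of freedom, eBayes with a trend, two-sided, with Benjamini-Hochberg adjustment over all 45037 probe sets and a threshold of 0.05. Precision is limited by the number of arrays. The code was tested on simulated data. Plots used Python 3.11.15 and matplotlib 3.10.9.

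All probe sets of the members were used. From each gene list, up to 4 genes with the highest mean signal could be named, and for each member the nearest gene among those with a mean above the 40th percentile. The members, lists and tests were chosen with earlier results of these data known.

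Alternatives were pseudocounts of 1 and 64, filters at the 40th and 60th percentiles, 1 probe set a gene with the lower filter, 4 other scalings (with a lowess span of 0.2 for the level adjustment), a fit of only the 4 arrays of a comparison, eBayes without a trend, a block for the title suffix, and leaving out each array. Replicate numbers were not used to pair the samples in the main fit. The differences between replicates of TAK1-deficient Igκ+ cells correlated at 0.002 with those of wild-type Igκ+ cells and at -0.0003 with those of wild-type Igλ+ cells. Between the wild-type groups the correlation was 0.194. Whether same-numbered wild-type arrays shared a preparation was not tested.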

Additional observations from a re-analysis of the deposited data

How the results depend on the processing

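In the comparison of TAK1-deficient with wild-type Igκ+ cells, 35414 probe sets passed, against 20939 and 13929 with filters at the 40th and 60th percentiles, 9519 with the 40th percentile filter and 1 probe set a gene (fewer were tested in each) and 19584 after the level adjustment. Of the 32 member probe sets, 18 were higher and 1 lower. The filters gave 8 and 1 of 16 tested and 5 and 1 of 13 tested, and 1 probe set a gene gave 4 and 0 of 7 tested. With all 32 tested, the counts were 10 and 9 after the level adjustment and 4 and 13 with median centring. They were 9 and 3 with quantile normalization and 4 and 15 with spiked control scaling. The count lower was 0 in eBayes without a trend and 2 with only the 4 arrays compared. Against wild-type Igλ+ cells, 35067 passed, against 21210, 14158, 9604 and 20161 in the same order, and members were 16 higher and 1 lower, against 7 and 1, 5 and 1, 4 and 0, and 9 and 7, then 3 and 15 with median centring, 7 and 4 with quantile normalization, 2 and 17 with spiked control scaling, and 0 lower without a trend. Here too the filters and 1 probe set a gene left 16, 13 and 7 member probe sets to test. The causes of these changes in the counts were not tested.

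Leading probe sets changed sign as follows. With median centring and with spiked control scaling, against wild-type Igκ+ cells, Cd24a was -0.69 and -1.44, Cd93 -2.56 and -3.30, Il7r -1.13 and -1.84, Lef1 -2.17 and -2.90, Myb -1.78 and -2.52, and Kit -0.0446 and -0.52. With Igλ+ cells as the wild type these values, in the same gene order, were -0.51 and -1.26, -2.39 and -3.13, -2.23 and -2.95, -0.96 and -1.70, -1.68 and -2.43, and -0.45 and -0.86. Between the wild-type groups Cd24a was -0.18 and -0.18, Cd93 -0.17 and -0.16, and Myb -0.10 and -0.0912. After the level adjustment Kit was -0.94 and Sox4 0.39 against wild-type Igκ+ cells, and Kit -1.46, Sox4 0.85 and Erg -0.51 against Igλ+ cells. With quantile normalization Kit was -0.88, -0.54 and, between wild-type groups, -0.34, and Erg was -0.0064 against Igλ+ cells.

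Leaving out 1 array gave 31097 to 35993 calls against wild-type Igκ+ cells, with 13 to 19 members higher and 0 to 2 lower, and 32789 to 33668 against Igλ+ cells, with 15 to 20 higher and 0 to 3 lower. Between the wild-type groups it gave 0 to 25 calls, the 25 without Igλ+ replicate 2, and 0 members. Values that changed sign on leaving out 1 array ranged, against Igλ+ cells, from -0.40 to 0.62 for Cd93, -0.0755 to 2.70 for Kit and -1.51 to 0.58 for Sox4. Between the wild-type groups they ranged from -0.0939 to 0.12 for Cd24a, -0.48 to 0.53 for Cd93, -0.87 to 1.90 for Kit, -0.0744 to 0.26 for Myb and -1.50 to 0.58 for Sox4. A group left with 1 array took its spread from the other groups. The filters removed the Kit and Erg leading probe sets, which have no value there, and the level adjustment, built for TAK1-deficient arrays, was not run between the wild-type groups. With the replicate number as a block, 35603 probe sets passed against wild-type Igκ+ cells (19 members higher, 1 lower), 35202 against Igλ+ cells (16 and 1) and 0 between the wild-type groups. Kit then passed against Igκ+ cells (limma adjusted p = 0.0448), and the block changed no other call at a leading probe set. Over leading probe sets and alternatives other than leaving out an array, 71 values against wild-type Igκ+ cells, 78 against Igλ+ cells and 86 between the wild-type groups kept their direction and side of the threshold. Signals near the control level, as for Kit and Erg, limit what the arrays can show.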
